A study of Mus musculus with 65 samples.

Results

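MEL cells are a murine erythroleukemia line, that is, transformed red cell precursors grown in culture. In the line used here the corepressor Mtg16 carries an FKBP tag and 2 HA tags, so that dTAGV1, called the degrader below, sends the tagged protein to the proteasome. The experiment described here asked whether A485, which blocks the acetyltransferase activity of p300 and CBP, changes the transcriptional response to 15 min of degrader. Its members were fixed by the library labels: 12 of the 65 libraries of the series, in 4 groups of 3, numbered 4 to 6 in each group. The groups were DMSO, 250 nM dTAGV1 for 15 min, 10 µM A485 for 15 min, and the combination of the 2 for 15 min, all in the same MEL Mtg16-FKBP-2XHA line and the same medium, so the DMSO cells carry the tag too. Whether the line is a single clone is not given in the sources used here. The labels also do not say that libraries of a group came from separate cultures. The p-values therefore measure only the spread between libraries within groups, which may be technical. That spread was taken over the 28 libraries and 10 groups of the fit, which include these 12.

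Mtg16, encoded by Cbfa2t3, has no DNA-binding activity of its own in the usual view of the family. It is brought to DNA by partners such as the SCL (Tal1), E protein and Gata1 complex of red cell precursors and in turn recruits histone deacetylases. The acetyltransferases p300 and CBP add acetyl groups to histones at enhancers and promoters and are used by many activators. PRO-seq, the assay used, marks the nascent RNA of engaged RNA polymerases, so that a value is a level of ongoing transcription, not of stored mRNA. Values are normalised read counts per gene, or per dREG site, a stretch of bidirectional transcription initiation that marks an active promoter or enhancer.

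The 12 libraries held 20.8 to 62.0 M (mega) reads in genes and 2.64 to 7.62 M in sites. Replicate pairs correlated at 0.994 to 0.996 over genes (log2 scale). The pairs that held A485 replicate 6 differed most, with a chi-square per degree of freedom of 6.94 to 9.58 over genes against 1.71 to 3.48 in the other 10 pairs. Some counts are therefore also given without that library. Of 10 red cell markers 8 were in the gene table and all 8 had a mean of at least 10, Hba-a1 and Slc4a1 being the ones not listed. Their summed reads were 11336 to 11894 in DMSO, 13548 to 13891 with the degrader, 2915 to 3182 with A485 and 3746 to 3801 with both agents. Megakaryocyte markers (4 of 5 measured) summed to 2769 to 2972 reads in DMSO, 2815 to 2839 with the degrader, 797.6 to 849 with A485 and 857.5 to 929.4 with both. Myeloid markers (4 of 6) summed to 3222 to 3351, 3217 to 3244, 1039 to 1139 and 1107 to 1144. All 3 sums were lower with A485 than without, and the part of this in the results below was not tested. Of 12 markers of lymphoid, mast, fibroblast and epithelial cells only 3 reached a mean of 10, and the highest summed level of any of these lists in any library was 92.48 reads (mast cells, with the degrader).

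The interaction is the log2 change from A485 to both agents minus the log2 change from DMSO to degrader. A negative value means that the degrader raised a gene less, or lowered it more, when A485 was present. Of 12597 genes tested, 429 had a negative interaction (3.41%) and 241 a positive one (1.91%) at an adjusted p under 0.05 (limma on log2 of value + 1, Benjamini-Hochberg), and 2154 had an unadjusted p under 0.05. The count was 414 without DMSO replicate 4, 435 without degrader replicate 4 and 598 without A485 replicate 6.

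The simple comparisons behind the interaction were of very unequal size. The degrader alone raised 1368 genes (10.9%) and lowered 730 (5.80%) against DMSO, and without DMSO replicate 4 it moved 1398 in all, not 2098. On top of A485 the degrader raised 108 genes (0.857%) and lowered 3 (0.0238%), and without replicate 5 of both agents it moved 71 in all, not 111. A485 alone raised 3249 genes (25.8%) and lowered 3692 (29.3%). The medians over all genes were between -0.001 and 0.007 in each of these comparisons. The values had been divided by size factors, so medians near 0 do not show that total transcription was unchanged. Raised and lowered are meant relative to that scaling here and below. The degrader-alone change is part of the interaction, so the next counts describe its composition and are no separate support. Of the 429 genes with a negative interaction, 421 had risen with the degrader alone, and of the 241 with a positive interaction 221 had fallen. Over the 1368 genes that rose, the median change was 0.31 without A485 and 0.04 with it, and 92 of them rose in both settings. Across all genes the degrader's changes without and with A485, which share no library, correlated at r = 0.22 (Spearman rho 0.15). Genes are not independent replicates, so no p is given.

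**Figure D1:**
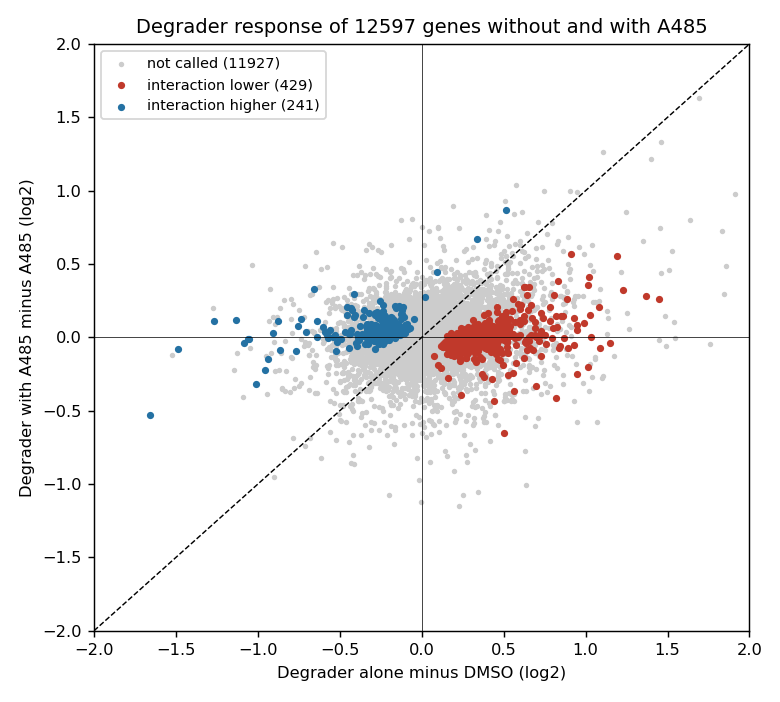
Log2 change with the degrader for 12597 genes, without A485 on the horizontal axis and with A485 on the vertical axis, 1 point a gene (1 gene lies outside the axes). Genes with a negative interaction (429, red) and a positive one (241, blue) lie mostly near the horizontal zero line, whereas equal responses would lie on the dashed line.

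The gene with the smallest p, chosen for this after values were seen, was Ext1, which encodes a polymerase of heparan sulfate chains. Its normalised reads were 4738, 5093 and 5189 in DMSO, 7793, 7820 and 8022 with the degrader, 7349, 7239 and 7702 with A485, and 7420, 7433 and 7524 with both. The 3 DMSO libraries were the lowest, and the values with both agents lay within the range of A485 alone. Ext1 rose by 0.65 ± 0.04 (log2 ± SE) with the degrader and by 0.57 with A485, and the degrader added 0.01 on A485. The interaction was -0.65 ± 0.06 (limma adjusted p = 1.87e-08).

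The same arrangement, with each agent alone raising the gene and the combination no higher, was found at Vps13c, a lipid transfer protein, and Mboat2, a lysophospholipid acyltransferase, which were also picked by their p. Vps13c had 4897, 5020 and 5439 reads in DMSO, 8471, 8240 and 8647 with the degrader, 6789, 6992 and 7657 with A485 and 7316, 7459 and 7322 with both (interaction -0.68 ± 0.07, limma adjusted p = 2.3e-08). Mboat2 had 1187, 1233 and 1225 in DMSO, 2240, 2118 and 2009 with the degrader, 1837, 1952 and 1813 with A485 and 2005, 1933 and 1906 with both (interaction -0.74 ± 0.07, limma adjusted p = 2.3e-08). In both genes DMSO lay below the other 9 libraries, and both agents together overlapped A485 alone. The noncoding gene A330023F24Rik, 1 of the 12 most negative values, went from 225.9, 259 and 276.9 in DMSO to 573.7, 519.3 and 524.1 with the degrader and 522, 532.8 and 487.6 with A485. With both it had 472.1, 476.5 and 519.3, which overlapped A485 alone (interaction -1.16 ± 0.12, limma adjusted p = 1.12e-07).

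A second arrangement was a rise with the degrader that was not seen on A485, at genes that A485 itself moved little. Sik1, a salt-inducible kinase, had 438.3, 470.1 and 507 reads in DMSO and 1129, 863.2 and 927.5 with the degrader. With A485 it had 527.7, 540.5 and 458.9, and with both 528.2, 483.8 and 516.1. The 3 degrader libraries stood apart, and the ranges of the other 3 groups overlapped. The degrader's effect was 1.04 ± 0.10 alone and 0.00 on A485, and the interaction was -1.03 ± 0.14 (limma adjusted p = 5.28e-06). Foxo3, a forkhead transcription factor of red cell maturation, had 3883, 3957 and 3806 reads in DMSO, 5367, 5039 and 5016 with the degrader, 3544, 3942 and 3466 with A485 and 3754, 3700 and 3798 with both. Its degrader libraries lay above all others, and its interaction was -0.36 ± 0.06 (limma adjusted p = 4.86e-05).

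Another arrangement joined a rise with the degrader to a fall with A485. Erg, an ETS-family transcription factor of stem cells and megakaryocytes, had 146.4, 167.7 and 191.2 reads in DMSO, 335.6, 345.9 and 337.8 with the degrader, 52.61, 54.81 and 63.56 with A485, and 71.98, 81.17 and 67 with both. None of these 4 groups overlapped another. The degrader changed Erg by 1.02 alone and by 0.36 on A485 (limma adjusted p = 0.525 for the latter), and the interaction was -0.66 ± 0.19 (limma adjusted p = 0.0378). E2f2, a cell cycle transcription factor, rose both without A485 (0.64) and with it (0.29, limma adjusted p = 0.0192), and the rises differed (interaction -0.35 ± 0.09, limma adjusted p = 0.0189). Erg lost its call under 11 of 22 alternative settings and E2f2 under 5, and the interaction of Erg ranged from -0.75 to -0.56 over them.

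Egr1, an immediate early transcription factor, was the 1 gene with a negative interaction that each agent alone raised and that fell when the degrader was added to A485. It had 3690, 3738 and 3814 reads in DMSO, 4993, 5424 and 4749 with the degrader, 5163, 5417 and 4902 with A485, and 4405, 4058 and 4265 with both. The combination lay above DMSO and below each agent alone, without overlap. The degrader raised Egr1 by 0.43 alone and lowered it by 0.28 on A485 (limma adjusted p = 0.00142), and the interaction was -0.71 ± 0.07 (limma adjusted p = 7.85e-08). Fosl2, an AP-1 subunit, rose with the degrader from 778.1, 796.4 and 767.9 reads to 1390, 1138 and 1098. With A485 it had 639.4, 709.2 and 619.4 reads and with both 570.6, 595 and 615, so the combination was the lowest group (interaction -0.76 ± 0.13, limma adjusted p = 0.000119). Adding the degrader to A485 moved Fosl2 by -0.14, which did not pass (limma adjusted p = 0.9998).

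Genes with a positive interaction were mostly ones that the degrader alone lowered. L1cam, a cell adhesion molecule, had 969.7, 992.7 and 1052 reads in DMSO, 483.5, 472.1 and 488.4 with the degrader, 397.4, 381.5 and 403.1 with A485 and 397, 376.6 and 398.8 with both. DMSO lay above the other 9 libraries, and both agents together overlapped A485 alone. The fall with the degrader was -1.06 ± 0.08 alone and -0.01 on A485, and the interaction was 1.05 ± 0.11 (limma adjusted p = 8.63e-08).

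Ankrd36 had 3493, 3681 and 3636 reads in DMSO, 2045, 1827 and 2015 with the degrader, 931.5, 927.7 and 1048 with A485 and 1037, 1093 and 1009 with both (interaction 0.99 ± 0.10, limma adjusted p = 4.28e-08). Sema4a, a semaphorin, had 1709, 1500 and 1643 in DMSO, 823.9, 896.9 and 859.8 with the degrader, 317.3, 300.9 and 272.1 with A485 and 293.2, 303.6 and 311.1 with both (interaction 0.94 ± 0.11, limma adjusted p = 4.68e-07). In both genes A485 alone lowered transcription further than the degrader alone, and the combination overlapped A485. Siglec1, a sialic acid-binding lectin of macrophages, had the highest positive interaction among the genes the naming rule gave, 1.41 ± 0.19 (limma adjusted p = 5.6e-06). It fell from 182.6, 159.7 and 170.3 reads in DMSO to 60.14, 55.88 and 65.05 with the degrader, 74.46, 65.7 and 64.34 with A485 and 69.86, 62.5 and 60.62 with both. The 3 treated groups overlapped each other and lay below DMSO. Nab2, a corepressor that binds Egr proteins, fell by 1.05 with the degrader, its change with A485 was -1.96, and the degrader changed it by -0.01 on A485 (interaction 1.04 ± 0.23, limma adjusted p = 0.00492).

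**Figure D2:**
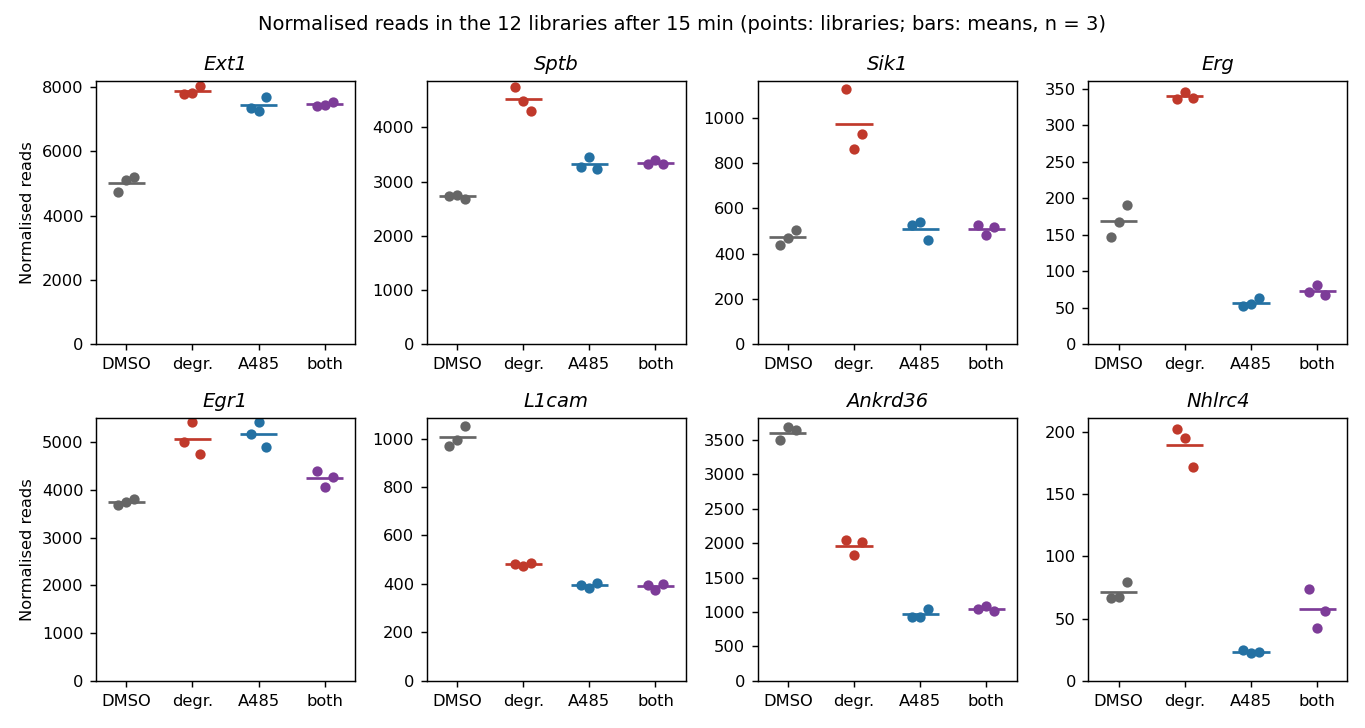
Normalised reads of 8 genes in each of the 12 libraries, with bars at the means of 3 libraries and each vertical axis starting at 0. Ext1 is low in DMSO alone, Sik1 is high with the degrader alone, Egr1 with both agents lies between DMSO and the single agents, L1cam is high in DMSO alone, and Nhlrc4 rises with the degrader in both settings.

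The other genes of the 12 most negative and 12 most positive values were mostly weakly transcribed. The naming rule took genes with a mean of at least 20 reads over the 12 libraries, and 10 of the 12 negative and 7 of the 12 positive ones had a mean under 100. The negative values ran from -1.23 to -0.97 and the positive ones from 0.83 to 1.41. In all 24 the degrader libraries did not overlap DMSO, and in 10 of 12 negative and 10 of 12 positive genes both agents overlapped A485 alone. The 24 were picked by the interaction, which holds the degrader-alone change. These counts therefore describe the pick and are no separate support, and the shares over all genes were not counted. The 2 negative genes without that overlap, Gm26710 and Fbxo2, an F-box protein, were lower with both agents than with A485. The 2 positive ones, Gm15798 and Rap1gap2, a Rap1 GTPase activator, were higher.

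Among the negative ones were Ltf, lactoferrin of granules, with 22.59, 25.1 and 34.86 reads in DMSO, 81.79, 78.03 and 67.15 with the degrader, 27.52, 38.47 and 39.53 with A485 and 50.81, 34.09 and 42.28 with both (interaction -1.18 ± 0.36, limma adjusted p = 0.0466). Neil1, a DNA glycosylase of base excision repair, had 23.5, 33.09 and 25.9, then 85.4, 66.47 and 65.05, then 49.37, 49.36 and 65.89, and with both 63.51, 61.69 and 74.18 (interaction -1.09 ± 0.27, limma adjusted p = 0.0131). In both genes the degrader libraries were above DMSO and overlapped neither it nor, for Ltf, the other treated groups. Ltf lost its call under 10 of 22 alternative settings and Neil1 under 2. The remaining negative ones were Lmntd2, Cfap157, Mturn, the kinase Mark1, Inka2 and Igfbp5, an insulin-like growth factor binding protein. The remaining positive ones were Npnt, an extracellular matrix protein, Apol8, the noradrenaline transporter gene Slc6a2, the acrosin gene Acr, and Nrap. Gm26710 lost its call under 10 of 20 alternative settings, Mturn under 9 of 22, Mark1 under 6 of 22, and Cfap157 and Igfbp5 under 0 of 22. Among the positive ones Apol8 lost it under 9 of 22, Slc6a2 and Gm15798 under 7 of 21, Nrap under 2 of 22 and Acr under 0 of 22.

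The arrangements can be counted over all called genes from the calls of each agent alone. Of the 429 genes with a negative interaction, 213 rose with the degrader and rose with A485 without a call for the degrader on A485, with median changes of 0.36, 0.33 and -0.03. Another 104 rose with the degrader and were not called with A485. In another 90 the degrader raised the gene and A485 lowered it, and 13 more did so and also rose with the degrader on A485. Of the 241 genes with a positive interaction, 173 fell with either agent and were not called for the degrader on A485, with median changes of -0.27, -0.52 and 0.03. A positive interaction at a gene that both the degrader alone and the degrader on A485 raised was found in 2 genes. Of all 670 called genes, 388 had moved in the same direction with each agent alone. The A485-alone change is part of the interaction, as the degrader-alone change is. These counts therefore describe its composition and are no separate support. A485 alone raised 25.8% and lowered 29.3% of all genes, and the share of all genes moved in the same direction by each agent was not counted.

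**Figure D3:**
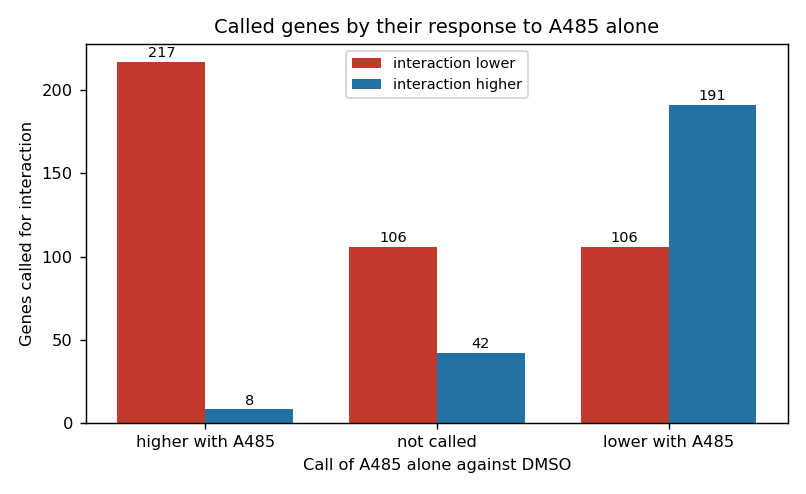
Number of genes called for the interaction, split by the call of A485 alone against DMSO on the horizontal axis. Of the genes with a negative interaction 217 rose with A485, 106 were not called and 106 fell, and of those with a positive interaction 8, 42 and 191. Over all genes 25.8% rose and 29.3% fell with A485 alone, a change that is part of the interaction.

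DMSO was often the group that stood apart. All 3 DMSO libraries lay below the other 9 in 891 genes (7.07%) and above them in 1035 (8.22%), and these held 216 of the 429 negative and 178 of the 241 positive interactions. The DMSO libraries enter the interaction and each agent's own change, so no comparison within these 12 libraries separates a response to each agent that does not add up from DMSO libraries that differ for another reason. These cannot be told apart here. The 3 degrader libraries lay above the other 9 in 1600 genes (12.7%), which held 269 of the 429 negative interactions. They lay below the other 9 in 884 (7.02%). The degrader libraries enter the interaction too, so the count of 269 describes its composition and is no separate support. Of the 12597 genes tested, the A485 libraries lay above the other 9 in 255 and below in 612, and those of both agents in 205 and 184.

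A separate time course in the same line, with its own DMSO and degrader libraries and no A485, gives values that the interaction does not use. It held 3 libraries each of DMSO, 15 min and 30 min of degrader. Its 15 min replicate 2 correlated with the other 15 min libraries at 0.433 to 0.495 (change from the DMSO mean over genes) against 0.685 between those, and its 30 min replicate 3 at 0.527 to 0.534 against 0.839, so each count follows with and without these 2. With all 9 libraries 381 genes rose at 15 min (2.99%), and without the 2 libraries 1534 rose (12%). Of the 370 that rose and were also tested for the interaction, 52 had a negative interaction and 7 a positive one, that is 14.1% against the 3.41% of all genes for the negative ones. Their median interaction was -0.18 against 0.00 over all genes (-0.2, -0.205 and -0.169 with libraries 4, 5 and 6 combined by number). Of the 370, 295 were below 0 (79.7%), against 49.0% of all genes. In the 12 libraries these 370 genes changed by a median of 0.46 with the degrader alone, 0.19 with the degrader on A485 and -0.95 with A485. The count of genes called in either direction in the time course, 397, was 240, 191 and 225 without DMSO replicates 1, 2 and 3 and 233 without 15 min replicate 1. It was 378 without 15 min replicate 2 alone, so the higher count came only with 30 min replicate 3 left out too. That library is not part of the 15 min change and enters the fit through the spread. With the 2 libraries that stood apart left out, 1515 risers were tested for the interaction, 208 of them were called negative (13.7%) and 22 positive (1.45%), and the median was -0.12.

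The classes of called genes had different medians in the time course. Of all 12758 genes tested there, 381 were called higher and 16 lower. Without the 2 libraries that stood apart, 1534 of 12751 were called higher and 1388 lower. Among the 213 genes that rose with each agent, the median time-course change was 0.02 and 4 were called higher. Without the 2 libraries it was 0.14 and 70 of 213 were called higher, and 5 lower. Among the 90 genes raised by the degrader, lowered by A485 and not called for the degrader on A485, the median was 0.32 with 25 called higher, and 0.38 with 67 called higher without the 2 libraries. Among the 173 genes that fell with each agent, it was -0.05 with 2 called higher and 1 lower, and -0.06 with 13 higher and 42 lower without the 2 libraries. The differences between classes were not tested. Of the 12 most negative genes named above, 2 (Mturn and Ltf) were called in the time course with all 9 libraries, and of the 12 most positive 0. Their changes there ran from -0.19 to 1.18 and from -0.64 to 0.80. Ext1, Vps13c, Mboat2, Sik1 and Foxo3 changed by 0.39, 0.19, 0.07, 0.40 and 0.03 and were not called. Erg rose by 2.24 and was called (limma adjusted p = 0.000789).

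**Figure D4:**
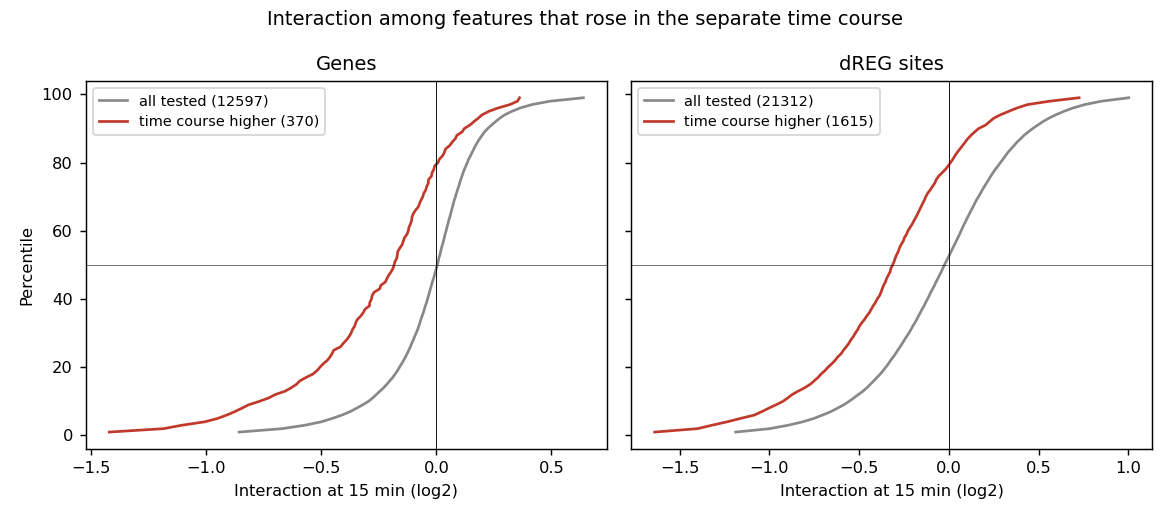
Percentiles of the interaction at 15 min for genes (left) and dREG sites (right) that rose in the separate time course (red) and for all tested (grey). The median of the risers is -0.18 over 370 genes and -0.31 over 1615 sites, against 0.00 and -0.02 over all tested.

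Fold changes and reads gained need not tell the same story where A485 lowers the starting level. Of the 370 time-course risers, 344 gained fewer normalised reads with the degrader on A485 than with the degrader alone, although most had no called interaction on the log scale. A485 alone lowered 301 of the 370, and the share of all genes with a smaller gain was not counted. Nhlrc4 is an example: it had 66.88, 67.32 and 79.68 reads in DMSO, 202.1, 194.6 and 171.5 with the degrader, 25.09, 22.14 and 23.25 with A485, and 74.1, 42.21 and 55.84 with both. The degrader libraries lay above their own controls in both settings. It rose by 1.40 without and by 1.22 with A485 (limma adjusted p = 8.35e-05 for the latter), a difference of -0.18 ± 0.26 (limma adjusted p = 0.805), while the gain in mean reads was 118.1 and 33.9. Among the called genes with the largest rises with the degrader alone, taken under the same minimum mean of 20 reads and rule of 1 sign, Ltf had a called interaction. For Gm10612, Gm35202, E130215H24Rik and Nhlrc4 the interaction was -0.06 ± 0.67, -1.02 ± 0.32, -0.13 ± 0.71 and -0.18 ± 0.26, and the highest A485 library of any of these 4 held 25.09 reads.

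Red cell genes showed both kinds of outcome. Of 38 measured globin, heme and red cell genes, 18 rose with the degrader alone and 1 fell (10.9% and 5.80% over all genes), 9 rose with the degrader on A485 (0.857%), and 34 fell with A485 alone (29.3%). Over the 18 that rose, the median change was 0.48 alone and 0.20 on A485, and 8 of them were called on A485. The 18 were picked by their degrader-alone change, so the smaller change on A485 is no separate support. The interaction was negative in 4 (Sptb, Add2, Xk and Abcb10) and positive in 1 (Alad). The list's median interaction was -0.07, against 0.00 over all genes. The shares called in the interaction were 3.41% and 1.91% over all genes.

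Sptb, beta-spectrin of the red cell membrane skeleton, had 2737, 2756 and 2686 reads in DMSO, 4750, 4490 and 4303 with the degrader, 3268, 3455 and 3232 with A485 and 3321, 3406 and 3325 with both. It was the 1 member A485 raised, and both agents overlapped A485 alone (interaction -0.71 ± 0.07, limma adjusted p = 2.3e-08). Add2, beta-adducin of the same skeleton, had 3949, 4051 and 4184 in DMSO, 6216, 5727 and 5485 with the degrader, 2375, 2710 and 2369 with A485 and 2729, 2866 and 2775 with both. Xk, a membrane protein linked to the Kell antigen, had 1515, 1524 and 1508, then 2206, 2039 and 2140, then 759.1, 871.5 and 879, and with both 825.7, 967.5 and 979.5. Each rose clear of DMSO with the degrader, Add2 lost its interaction call under 3 and Xk under 4 of 22 alternative settings, and the interaction was -0.35 ± 0.09 in both (limma adjusted p = 0.0146 and 0.018). Abcb10, a mitochondrial transporter needed for heme synthesis, rose by 0.56 without and 0.26 with A485 (interaction -0.30 ± 0.09, limma adjusted p = 0.0328). Alad, an enzyme of heme synthesis, fell by 0.22 with the degrader and by 1.08 with A485, and its interaction was 0.26 ± 0.06 (limma adjusted p = 0.00687).

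Other red cell genes rose with the degrader in both settings, from lower levels with A485, without a called difference between the rises. These were chosen after their values were seen, as members that rose with the degrader on A485. Hemgn, a nuclear protein of red cell precursors, had 460, 393.6 and 445.2 reads in DMSO, 997.1, 861.3 and 940 with the degrader, 50.18, 66.06 and 55.81 with A485 and 132.3, 142 and 141.2 with both. The degrader raised it by 1.11 without and by 1.27 with A485, without overlap with the respective control, a difference of 0.16 ± 0.25 (limma adjusted p = 0.819). Gypc, glycophorin C, had 2591, 2485 and 2711, then 4045, 3958 and 3808, then 662, 673.3 and 661.2, and with both 1047, 1084 and 1025. It rose by 0.60 and 0.66, a difference of 0.06 ± 0.12 (limma adjusted p = 0.869). Aqp1, a water channel, rose by 0.48 and 0.78 (difference 0.31 ± 0.13, limma adjusted p = 0.216). Car2, a carbonic anhydrase, rose by 0.57 and 0.39 (difference -0.18 ± 0.09, limma adjusted p = 0.336), and Fech, which inserts iron into heme, by 0.34 and 0.31 (difference -0.04 ± 0.09, limma adjusted p = 0.907).

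Transcription factors of blood cells also had members of both kinds. Of 33 measured, 11 rose and 2 fell with the degrader alone (10.9% and 5.80% over all genes), 7 rose with the degrader on A485 (0.857%) and 29 fell with A485 (29.3%). The interaction was negative in 3 (Foxo3, E2f2 and Erg; 3.41% over all genes) and positive in 1 (1.91%), Etv6, an ETS repressor with a change of -0.19 alone and 0.05 on A485 (interaction 0.24 ± 0.04, limma adjusted p = 6.1e-05). The median interaction of the list was 0.03. Of 16 megakaryocyte and platelet genes none was called, with Tubb1, a platelet tubulin, nearest (-0.49 ± 0.17, limma adjusted p = 0.0935).

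Immediate early genes had 9 of 35 measured members raised and 2 lowered by the degrader alone (10.9% and 5.80% over all genes), 2 raised and 1 lowered on A485 (0.857% and 0.0238%), and a median interaction of -0.10. Of the 35, Egr1 and Fosl2 were called for the interaction, a share near the 3.41% over all genes, and Maff and Srf, both transcription factors, had -0.59 ± 0.19 and -0.34 ± 0.11 (limma adjusted p = 0.0573 and 0.0832). Of the Myc network, 2 of 39 members were called, both negative and again a share near that over all genes: Mxi1 and Mxd1, which encode repressors that pair with Max. Mxi1 had 1962, 1869 and 1898 reads in DMSO, 2816, 2645 and 2603 with the degrader, 1980, 2193 and 2042 with A485 and 2009, 2010 and 2135 with both. Its degrader libraries lay above all others (interaction -0.51 ± 0.07, limma adjusted p = 2.43e-05), and Mxd1 had -0.47 ± 0.09 (limma adjusted p = 0.000604).

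Over all genes 1.91% were called positive and 3.41% negative. Heat shock and chaperone genes had 3 of 18 called positive and none negative: Hsp90ab1 (0.28 ± 0.08), Hspd1 (0.26 ± 0.07) and Hsp90aa1 (0.35 ± 0.11), with limma adjusted p of 0.021, 0.0252 and 0.0417. These lost their calls under 6, 4 and 9 of 22 alternative settings. The degrader alone lowered 3 of the 18 and raised none, and the list's median interaction was 0.12. Stem and progenitor genes had 2 of 16 positive, the cyclin gene Ccnd2 and the growth factor gene Angpt1, and 1 negative, Mllt3, a reader of acylated histones. Ccnd2 had 5908, 5638 and 6064 reads in DMSO, 4787, 4623 and 4576 with the degrader, 1464, 1452 and 1410 with A485 and 1490, 1540 and 1473 with both. Both single agents lowered it without overlap, and with both it lay slightly above A485 alone (interaction 0.39 ± 0.06, limma adjusted p = 0.000119). Mllt3 rose by 0.44 without and by 0.01 with A485 (interaction -0.43 ± 0.06, limma adjusted p = 1.41e-05).

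In the remaining lists few genes were called, set against 3.41% negative and 1.91% positive over all genes. Cytokine receptor and JAK-STAT genes had 3 of 28 negative: the signal transducers Stat3 (-0.24 ± 0.07) and Stat5b (-0.18 ± 0.06) and the activin receptor Acvr1b (-0.20 ± 0.06), with limma adjusted p of 0.0273, 0.0472 and 0.0417. The MTG family and its corepressor partners had 2 of 20 negative: the zinc finger repressor Zbtb16 (-0.26 ± 0.06, limma adjusted p = 0.0027) and Gps2, a subunit of the NCoR complex (-0.64 ± 0.18, limma adjusted p = 0.0266). Stat3, Stat5b, Acvr1b and Gps2 lost their calls under 6, 8, 9 and 6 of 22 alternative settings. NF-kB and interferon genes had 1 of 26, the NF-kB subunit Relb (-0.57 ± 0.12, limma adjusted p = 0.00165), and granulocyte and macrophage genes 1 of 15, Ltf. None was called among 31 acetyltransferases, deacetylases and acetyl readers, 35 pause release and elongation genes, 22 p53 targets and cell cycle inhibitors, 9 lymphoid, mast cell and basophil genes and 6 neuronal and epithelial genes.

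**Figure D5:**
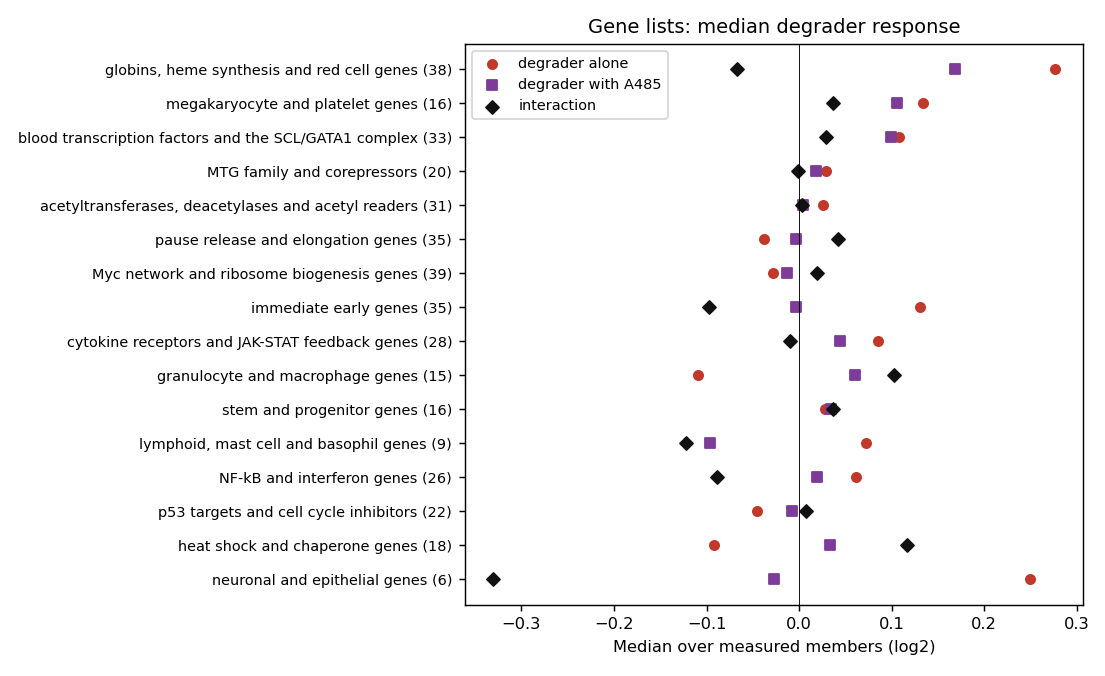
Median log2 change over the measured members of each gene list (number in brackets) with the degrader alone (circles), with the degrader on A485 (squares) and for the interaction (diamonds). Red cell genes have medians of 0.28 without and 0.17 with A485 and an interaction median of -0.07.

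The gene of the degraded protein itself, Cbfa2t3, had 11527, 10211 and 12072 reads in DMSO, 17346, 17575 and 17124 with the degrader, 5867, 5128 and 5022 with A485 and 6506, 6605 and 6336 with both. Each degrader group lay above its control. Cbfa2t3 rose by 0.63 ± 0.11 alone, and its change on A485 was 0.28 (limma adjusted p = 0.532), and the difference of -0.34 ± 0.15 was not called either (limma adjusted p = 0.23). PRO-seq does not measure the protein, so its loss was not checked here.

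Long genes made up more of the calls. The median gene span was 65.2 kb for the genes with a negative interaction and 43.0 kb for those with a positive one, against 21.8 kb over all genes (RefSeq spans of GRCm38.p6, known for 99.9% of the genes tested). With the genes in 5 classes of equal size by length, from short to long, 0.715%, 0.914%, 1.87%, 4.77% and 8.78% had a negative interaction and 0.913%, 0.715%, 1.75%, 2.34% and 3.85% a positive one. The median reads per gene rose from 125.3 in the shortest class to 1836 in the longest, so length moved together with the number of reads, and the part of each was not tested. The median interaction was 0.03 in the shortest class and -0.04 in the longest.

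Promoter sequences are shown for 4 genes that carry the patterns above: Sptb and Mboat2, raised by the degrader less when A485 was present, Neil1, which had the most motif matches of the 14 promoters searched, and Ankrd36, lowered by each agent. Each is the 250 bases before the start in RefSeq on GRCm38.p6, 5′ to 3′ on the strand of the gene: Sptb chr12:76710548-76710797 (minus), Mboat2 chr12:24831349-24831598 (plus), Neil1 chr9:57148306-57148555 (minus) and Ankrd36 chr11:5569434-5569683 (plus). The start need not be the one used in MEL cells. Capitals mark matches on either strand to GATAA (the GATA core), CAGATG and CAGCTG (E-boxes of Tal1 and of E proteins), TGTGGT (Runx), TGACG (the core of the CREB site) and CCAAT.
Sptb: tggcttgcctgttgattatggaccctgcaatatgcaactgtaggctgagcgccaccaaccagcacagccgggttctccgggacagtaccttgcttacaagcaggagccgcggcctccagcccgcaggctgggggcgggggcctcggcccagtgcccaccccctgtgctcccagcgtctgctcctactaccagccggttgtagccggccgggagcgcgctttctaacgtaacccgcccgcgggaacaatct
Mboat2: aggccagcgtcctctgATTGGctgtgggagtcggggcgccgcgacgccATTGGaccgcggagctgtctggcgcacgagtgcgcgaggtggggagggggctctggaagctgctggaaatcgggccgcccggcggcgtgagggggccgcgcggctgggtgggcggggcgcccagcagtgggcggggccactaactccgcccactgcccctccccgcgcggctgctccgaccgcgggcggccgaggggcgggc
Neil1: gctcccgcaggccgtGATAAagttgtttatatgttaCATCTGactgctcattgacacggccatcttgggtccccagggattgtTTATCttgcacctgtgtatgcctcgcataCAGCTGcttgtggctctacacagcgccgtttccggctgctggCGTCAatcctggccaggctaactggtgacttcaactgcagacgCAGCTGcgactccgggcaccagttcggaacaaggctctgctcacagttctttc
Ankrd36: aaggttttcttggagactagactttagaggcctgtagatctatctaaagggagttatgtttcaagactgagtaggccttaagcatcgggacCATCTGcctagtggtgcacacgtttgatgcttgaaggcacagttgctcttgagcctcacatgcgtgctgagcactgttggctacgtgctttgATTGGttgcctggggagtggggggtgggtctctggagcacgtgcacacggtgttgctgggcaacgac

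Sptb had no match, Mboat2 had 2 CCAAT matches (234 and 202 bases before the start), Ankrd36 had an E-box (159) and a CCAAT match (67), and Neil1 had 6 matches, among them GATA cores at 235 and 167. In the window of 300 bases that includes 50 after the start, GATAA was found for 17.4% of the 340 genes with a negative interaction and a listed promoter, 21.4% of the 196 with a positive one and 19.4% of all 10171. For CAGATG the shares were 12.4%, 15.8% and 13.8%, for CAGCTG 22.1%, 20.4% and 17.8%, and for TGTGGT 12.4%, 13.8% and 15.4%. For TGACG they were 30.0%, 40.8% and 35.6%, and for CCAAT 49.1%, 42.9% and 43.1%. These shares are descriptions, and the motif list was chosen with earlier results known.

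At dREG sites the same comparison gave few calls. Of 21312 sites tested, 7 had a negative interaction (0.0328%) and 7 a positive one (0.0328%), and 1592 had an unadjusted p under 0.05. The count of 14 in all was 57 with edgeR and 93 with DESeq2 on the recovered reads. It was 2 without DMSO replicate 4, 1 without DMSO replicate 5, and 0 without degrader replicate 4, where limma gave 1229 sites an unadjusted p under 0.05. It was 5 and 6 without degrader replicates 5 and 6, 3 without A485 replicate 5 or 6, and 4, 7 and 5 without replicates 4, 5 and 6 of both agents. The degrader alone raised 897 sites (4.21%) and lowered 262 (1.23%), with 506 moved in all, not 1159, without DMSO replicate 4, 559 without degrader replicate 4 and 618 without degrader replicate 5. On A485 the degrader raised 135 (0.633%), and A485 alone raised 2337 (11.0%) and lowered 3420 (16.0%). Over the 897 raised sites the median change was 0.86 without and 0.36 with A485, and 114 of them also rose with the degrader on A485. These sites were picked by their degrader-alone change, which is part of the interaction, so the smaller change is no separate support.

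Sites are given by their mm39 coordinates, since genes near them were not looked up. The largest negative value was at chr16:32338321-32339850, with 35.67, 24.46 and 33.33 reads in DMSO, 147.5, 141.6 and 130.9 with the degrader, 20.02, 15.98 and 18.71 with A485, and 12.46, 28.84 and 29.23 with both. Its degrader libraries lay above all others, and both agents overlapped A485 alone (interaction -1.89 ± 0.36, limma adjusted p = 0.0222). A site at chr7:79792651-79794320 had 34.76, 31.13 and 35.29 reads in DMSO, 155.1, 168 and 155.1 with the degrader, 17.29, 24.73 and 17.01 with A485 and 37.37, 27.99 and 30.95 with both. Here the degrader libraries lay above their control in both settings, by 2.21 and by 0.69 (limma adjusted p = 0.242 for the latter), and the interaction was -1.52 ± 0.31 (limma adjusted p = 0.0449). The site on chr16 lost its call under 9 and that on chr7 under 13 of 21 alternative settings. Both sites rose in the separate time course, by 2.45 and 2.47, and so did chr8:121019851-121021830 (1.77). The site on chr8 lost its interaction call under 12 of 21 alternative settings.

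The other negative sites named were chr3:88571261-88572410, chr10:77819031-77819880 and chr17:32059811-32062330, with interactions of -1.47, -1.39 and -0.88, and none of these 3 was called in the time course. They lost their interaction calls under 7, 10 and 3 of 21 alternative settings. The site on chr10 had 55.79, 48.92 and 50 reads in DMSO, 142.1, 130.5 and 107.7 with the degrader, 151.1, 200.5 and 153.9 with A485 and 174.4, 145.1 and 145.3 with both. Each agent alone raised it and the combination overlapped A485, as at Ext1.

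The 6 positive sites named were lowered by the degrader alone. The one at chr13:23926131-23927460 had 892.7, 749.3 and 657.8 reads in DMSO, 287.4, 350.5 and 265.2 with the degrader, 402.2, 398.7 and 314.6 with A485 and 339.7, 358.8 and 409.2 with both (interaction 1.34 ± 0.25, limma adjusted p = 0.0165). The one at chr1:23865841-23867350 had 247, 214.6 and 229.4, then 81.35, 85.29 and 92.27, then 100.1, 101.2 and 107.1, and with both 92.86, 106.9 and 87.69 (interaction 1.30 ± 0.21, limma adjusted p = 0.00861). In both, DMSO lay above the other 9 libraries. The others were chr16:35868561-35868990, chr3:96143661-96144190, chr7:25421731-25422510 and chr15:36592001-36592400, with interactions of 1.17, 1.12, 0.90 and 0.85. None of the 6 was called in the time course, where their changes ran from -0.69 to -0.15. In the order given, the 6 lost their interaction calls under 6, 1, 9, 6, 8 and 13 of 21 alternative settings.

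Over sites that rose in the time course the interaction leaned negative without many calls. In the time course 1915 sites rose (8.26%), and 2750 without the 2 libraries that stood apart over genes (12%). Over sites 15 min replicate 2 stood apart less, at 0.596 to 0.655 with the other 15 min libraries against 0.669 between those. For 30 min replicate 3 these were 0.624 to 0.632 against 0.828. The count in either direction, 2010, was 1315 without DMSO replicate 2, 1303 without 15 min replicate 1 and 1820 without 15 min replicate 2 alone. Of the 1615 also tested here, 3 had a negative interaction and none a positive one (limma, with an unadjusted p under 0.05 at 1592 of all sites). Of the 1615, 1278 were below 0 (79.1%), against 52.6% of all sites. The median interaction of the 1615 was -0.31, against -0.02 over all sites, and -0.39, -0.27 and -0.25 with libraries 4, 5 and 6 combined by number. They changed by a median of 0.68 with the degrader alone, 0.37 with the degrader on A485 and -0.92 with A485 alone, and 131 rose with the degrader on A485. Without the 2 time-course libraries the median was -0.28 over 2450 sites. The median site held 45.14 reads over the 12 libraries, against 531.3 for the median gene. Among the 10029 sites with a mean of at least 50 reads the interaction was called at 19, and the degrader alone at 1163.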

How the data were processed

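PRO-seq libraries of MEL Mtg16-FKBP-2XHA cells were processed by the authors with Bowtie2 2.2.2, SAMtools 1.16.1, featureCounts 2.0.1, DESeq2 1.46.0, HOMER and bedtools, per the submitters' processing notes, which list the builds mm39 and dm3. Whether fly spike-in reads set the size factors is not given in the sources used here. The deposited tables hold signal values, that is, counts the authors divided by size factors. Whole reads were recovered from them within a tolerance of 0.1. A gene is its symbol, with 1 transcript kept for each of 15020 symbols, and 56 per-sample columns outside these comparisons were not used.

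Genes (12597) and dREG sites (21312) with a mean of at least 10 over 28 libraries were tested on log2(value + 1) with limma 3.58.1 in R 4.3.3 (10 groups in 1 fit, trended eBayes, two-sided, Benjamini-Hochberg over the whole table, threshold 0.05), so fold changes of low genes are understated. The files turned out to hold these values and not raw counts, so count tests with edgeR 4.0.16 and DESeq2 1.42.0 on the recovered reads served as alternatives. Other alternatives were other pseudocounts (0.5 and 8), filters, transcript choice, the 12 libraries alone, a replicate block and leaving out each library. Same-numbered libraries did not deviate together (correlations of -0.142 to 0.196 over genes), so numbers were not taken as pairs.

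Named were the 12 most negative and 12 most positive genes among those with a mean of at least 20 and 1 sign in all replicates, 6 sites each way by the same rule, Cbfa2t3, up to 4 members of each of 16 lists by p, and the 6 largest rises with the degrader, of which 1 is not reported here. The 6 genes with the smallest p and the red cell genes that rose on A485 were added after values were seen. The comparison and the lists were chosen with earlier results of these data known. Gene spans and promoters came from RefSeq tables on GRCm38.p6, and site coordinates are on mm39.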

Additional observations from a re-analysis of the deposited data

Results flagged for a closer look

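The response to the degrader differed between cells without and with A485 in 429 genes in the negative and 241 in the positive direction, and in 7 sites each way, by the interaction term of the limma fit.

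The interactions (log2) of the 12 most negative genes were -1.23 for Gm26710, -1.22 for Lmntd2, -1.20 for Cfap157, -1.19 for Mturn, -1.18 for Ltf and -1.16 for A330023F24Rik. They were -1.15 for Fbxo2, -1.09 for Neil1, -1.03 for Sik1, -1.03 for Mark1, -0.98 for Inka2 and -0.97 for Igfbp5.

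For the 12 most positive genes they were 1.41 for Siglec1, 1.38 for Npnt, 1.25 for Apol8, 1.13 for Slc6a2, 1.05 for L1cam and 1.05 for Acr. They were 1.04 for Nab2, 0.99 for Ankrd36, 0.99 for Gm15798, 0.94 for Sema4a, 0.86 for Rap1gap2 and 0.83 for Nrap.

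At the sites named in the report the interactions were -1.89 and 1.17 (both on chr16), -1.52 and 0.90 (chr7), -1.47 and 1.12 (chr3), -1.39 (chr10), -1.07 (chr8), -0.88 (chr17), 1.34 (chr13), 1.30 (chr1) and 0.85 (chr15).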

How the results depend on the processing

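Counts moved with the libraries in the fit. Fitted on the 12 libraries alone, the interaction was called in 1225 genes and 92 sites, the degrader on A485 in 219 genes and 358 sites, and the degrader alone in 2360 sites. With the replicate block added, these were 1211 and 85, 210 and 333, and 2257, and all 670 genes were among the 1211. On the recovered reads the interaction was called at 57 sites with edgeR and TMM, 53 with size factors and 93 with DESeq2, the degrader alone at 1845, 1884 and 1799, and the degrader on A485 at 219 with DESeq2. With edgeR 926 genes were called, which held 667 of the 670.

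Leaving out 1 library at a time gave 414 to 603 genes and 0 to 14 sites for the interaction, 1398 to 2159 genes and 506 to 1219 sites for the degrader alone, 71 to 121 genes and 92 to 144 sites for the degrader on A485, and 6224 to 6906 genes and 4489 to 5661 sites for A485. In the time course it gave 191 to 378 genes and 1303 to 1820 sites. Without the 2 libraries that stood apart, the time course called 2922 genes and 3946 sites. With all its libraries and a mean of at least 50 it called 1300 sites. The median interaction of its risers was -0.12 over genes without these 2 libraries, and ran from -0.22 to -0.17 over genes and from -0.35 to -0.26 over sites with 1 library left out.

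Of 51 named genes called, 3 to 19 lost the call with 1 library left out, and of 12 sites 1 to 12, and none changed sign under any alternative run. Without A485 replicate 6, 13 of the 51 genes and 9 of the 12 sites lost it. The causes were not tested. Same-numbered libraries correlated best with each other in 4 of 18 cases. The median site held 45.14 reads, and among the 10029 sites with a mean of at least 50 the interaction was called at 19.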

Other observations

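The series also holds A485 libraries with 30 min and 1 h of treatment, which share the DMSO libraries of the 15 min comparison, so the values below are given side by side only. At 30 min there were 2 libraries each of A485 and of both agents, numbered 1 and 2. At 1 h those of A485 and of both agents are numbered 1 to 3, whereas the DMSO and degrader libraries are 4 to 6 throughout. In genes the A485 libraries held 16.9 and 14.2 M reads at 30 min and 7.45 to 14.7 M at 1 h, against 27.8 to 62.0 M at 15 min. The part of these differences in the values below was not tested. The interaction of Ext1 was -0.65 at 15 min, -0.70 at 30 min and -0.35 at 1 h, called at each time. That of Sik1 was -1.03, -0.32 and -0.05, and the later values were not called (limma adjusted p = 0.214 and 0.869). For Egr1 it was -0.71, 0.55 and 0.69, and the later, positive values were called (limma adjusted p = 3.48e-05 and 7.75e-08). For Fosl2 it was -0.76, 0.24 and 0.30, and the later values were not called (limma adjusted p = 0.318 and 0.113). For Erg it was -0.66, -1.10 and -1.18, for Igfbp5 -0.97, -1.34 and -1.50 and for L1cam 1.05, 1.28 and 0.48, called at each time. For Siglec1 it was 1.41, 1.53 and -0.02, and the value at 1 h was not called (limma adjusted p = 0.965).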
